A study of Mus musculus with 7 samples.

Results

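The genes described here are the chaperones, disulphide enzymes, degradation factors and stress sensors of the endoplasmic reticulum, measured in mouse glioma cells of a first and a second transplant. A list of 34 such genes was matched by symbol to the probes that the array's annotation assigns to 1 gene. It found 33 of them among 18193 genes in all. The symbol that found no probe was Ero1lb, which the gene table of assembly GRCm38.p6 gives as an older name of Ero1b, and Ero1b is reported apart from the counts. Where a gene had several probes, the brightest over the 7 arrays stood for it. All 33 passed the filter on dim probes, a mean log2 value of 3.99, so none was lost to it.

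Both groups were cells of C57/Bl6 gliomas that overexpress PDGF-B, a growth factor that drives glioma, together with the fluorescent protein EGFP from 1 bicistronic transcript. Secondary gliomas (n = 4) arose in NOD/SCID mice from grafts of early onset, low grade primary gliomas. These mice have no working T or B cells but still have myeloid cells. Tertiary gliomas (n = 3) arose in NOD/SCID mice from grafts of a secondary glioma. All 7 tumours were dissociated with trypsin and sorted for EGFP before RNA extraction. The labels call the samples biological replicates and name no primary tumour or host for any of them. The p-values therefore measure the spread between these samples. The mice's ages and the promoter behind PDGF-B are not stated there either.

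Values are log2 expression after RMA, a procedure that corrects background, equalises the arrays and summarises probes, so a step of 1 is a doubling. Array medians lay between 5.57 and 5.64. Precision is limited by how few arrays there are. The 10 markers of oligodendrocyte precursors and this glioma type were all above the dim filter, with a list mean of 9.67 to 10.26 in secondary and 10.10 to 10.25 in tertiary gliomas. Markers of microglia and macrophages were also present in the sorted cells. Their mean over 19 genes was 9.82 to 10.56 in secondary and 5.89 to 6.68 in tertiary gliomas, 18 of 19 were lower in tertiary gliomas, and of the 19 only Itgam had a tertiary mean below the dim filter. In such bulk samples fewer cells of a type and less RNA per cell cannot be told apart.

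Secreted and membrane proteins fold in the endoplasmic reticulum, where chaperones hold unfolded chains and disulphide isomerases form and rearrange disulphide bonds. Chains that fail to fold are recognised by lectins and mannosidase-like proteins, passed through the membrane, tagged with ubiquitin and degraded by the proteasome. When unfolded chains accumulate, the membrane sensors IRE1, PERK and ATF6 raise the transcription of chaperones and degradation factors and slow translation, a programme called the unfolded protein response.

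Of the 33 genes, 2 fell and 0 rose in tertiary gliomas, by limma with Benjamini-Hochberg adjustment over 14453 genes and an adjusted p under 0.05. Both that fell, Edem1 and Edem2, belong to the degradation of misfolded glycoproteins. Over all genes tested, 6.33% were lower and 1.04% higher by the same rule, or 7.38% in either direction. At an unadjusted p under 0.05, 4 of the 33 genes were lower and 1 was higher, against 11.7% and 12.1% of all genes. The median log2 fold change, tertiary minus secondary, was 0.11 over the 33 genes and 0.09 over all genes tested. Without both secondary glioma 3 and tertiary glioma 1, an alternative chosen after seeing the data, 2 genes were again lower and 0 higher.

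**Figure D1:**
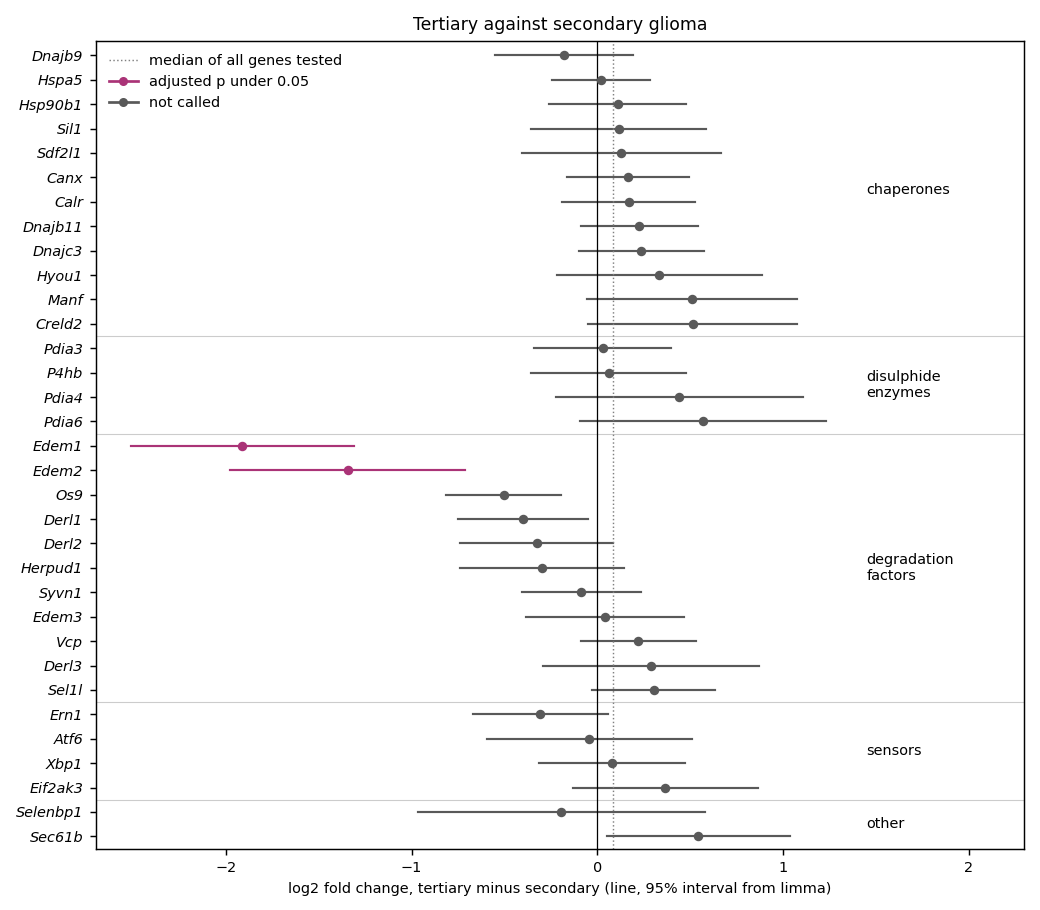
Log2 fold change of each gene, tertiary minus secondary (x axis), with its 95% interval from limma, ordered within each functional group. The dotted line is the median of all genes tested, 0.09. Edem1 and Edem2, in colour, are the genes with an adjusted p under 0.05, and the intervals of the chaperones all cross 0.

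The chaperones of the lumen did not pass the test in either direction. None of 12 was called by limma, also at an unadjusted p under 0.05, and 11 of the 12 log2 fold changes were positive, where 60.6% of all genes tested were. That count was 9 when tertiary glioma 3 was left out, and 10 with array weights or when secondary glioma 1 or tertiary glioma 2 was. Their median was 0.17, or 0.27 when tertiary glioma 1 was left out. Hspa5 encodes BiP, the Hsp70 chaperone that binds unfolded chains and holds the 3 sensors inactive. Its log2 level was 11.76, 11.73, 11.77 and 11.76 in secondary gliomas 1 to 4 and 11.68, 11.79 and 11.83 in tertiary gliomas 1 to 3. By this brightest probe the arrays lay within 0.15 of each other, a range narrower than that of all but 0.671% of the genes tested. The other Hspa5 probes ran from 11.24 to 11.45 and from 5.83 to 6.34 over the arrays. With the brightest probe the log2 fold change was 0.02 ± 0.11 (SE), with a 95% interval of -0.25 to 0.28 (adjusted p = 0.943).

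The upstream stretch of Hspa5 is shown because it carries the element through which this response is known to act. It is the 250 bases before the RefSeq start site, chr2:34771840-34772089 of GRCm38.p6, plus strand. Capitals mark the fixed letters of the ER stress element (CCAAT, then 9 bases of any kind, then CCACG), which NF-Y and ATF6 are known to bind.
Hspa5: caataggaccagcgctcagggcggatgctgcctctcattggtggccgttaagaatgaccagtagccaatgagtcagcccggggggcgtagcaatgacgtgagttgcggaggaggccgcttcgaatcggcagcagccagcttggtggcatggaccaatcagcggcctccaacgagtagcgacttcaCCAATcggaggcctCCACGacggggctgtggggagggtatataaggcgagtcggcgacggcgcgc

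RefSeq promoters of 300 bases, from 250 before to 50 after the start site, were found for 28 of the 33 genes. Both strands were searched for 3 exact motifs: the ER stress element, the ER stress element II (ATTGG, then 1 base of any kind, then CCACG) and an XBP1-type element (TGACGTGG). The first was present in 9 of the 28 (32.1%) and in 37 of 27025 genes with a promoter in the table (0.137%). ER stress element II was present in Herpud1 and Dnajb11, and in 0.0444% of all genes. The XBP1-type element was present in Vcp, and in 0.714% of all genes. Every match to the first 2 also contains the shorter words CCAAT and CCACG, on 1 or the other strand, which 41.1% and 35.5% of all genes hold. The element was first described in promoters of such chaperones, so its presence here is background and not a result. The other matches to the first 2 elements among the 33 genes are printed to show how far the bases between the fixed letters vary. Those of Herpud1 and Dnajb11 are ER stress element II, and the others have the arrangement of Hspa5. Each is read on the strand named, with fixed letters in capitals.
Hsp90b1 (chr10:86705638-86705656, minus strand): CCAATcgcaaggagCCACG
Hsp90b1 (chr10:86705533-86705551, plus strand): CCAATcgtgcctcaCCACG
Calr (chr8:84847075-84847093, plus strand): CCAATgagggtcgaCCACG
Canx (chr11:50325800-50325818, minus strand): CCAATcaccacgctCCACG
Dnajc3 (chr14:118937827-118937845, plus strand): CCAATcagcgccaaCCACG
Creld2 (chr15:88819520-88819538, minus strand): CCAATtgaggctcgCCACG
Pdia6 (chr12:17266491-17266509, plus strand): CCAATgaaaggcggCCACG
Derl3 (chr10:75893242-75893260, minus strand): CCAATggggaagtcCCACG
Syvn1 (chr19:6046532-6046550, plus strand): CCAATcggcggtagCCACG
Herpud1 (chr8:94386377-94386387, plus strand): ATTGGgCCACG
Dnajb11 (chr16:22857852-22857862, plus strand): ATTGGcCCACG

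The 9 genes with the ER stress element were not called. Their log2 fold changes had a median of 0.17 and 8 were positive, and the 19 genes whose promoter lacked it had a median of 0.04 with 11 positive. Over all genes tested, the median was 0.09 and 60.6% were positive. The genes with and without the element were not compared by a test, and those without it include Edem1 and Edem2. Ero1b, kept out of these counts, also held the element, at a log2 fold change of -0.48. Of the 37 genes with the element in the whole table, 16 were tested, and limma called 0 of them (3 at an unadjusted p under 0.05). Over all genes tested, 7.38% were called, and 12.1% were higher and 11.7% lower at an unadjusted p under 0.05. A match is only a match of letters, and binding was not measured here.

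**Figure D2:**
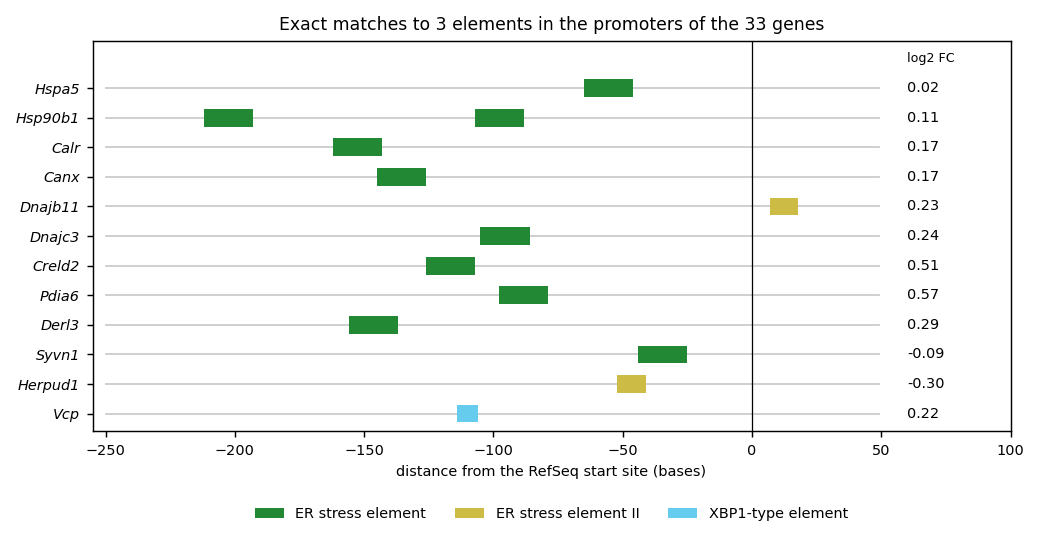
Position of each exact match (bar) relative to the RefSeq start site at 0, in bases (x axis), for the 12 of the 33 genes with a match. Each gene's log2 fold change, tertiary minus secondary, is at the right. Matches lie between -212 and 17, and the fold changes of the 12 genes run from -0.30 to 0.57.

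By their brightest probes, other lumenal chaperones varied more over the arrays than Hspa5 and were not called. Their ranges were 0.51 for Hsp90b1, 0.50 for Calr and 0.43 for Canx. These are still narrow, as only 20.1%, 18.8% and 13.7% of the genes tested had a smaller range. Hsp90b1, which encodes the lumenal Hsp90 protein GRP94, had a log2 fold change of 0.11 ± 0.16 (95% interval -0.26 to 0.48), and of -0.01 and 0.25 when tertiary gliomas 3 and 1 were left out in turn. The lectin chaperones calreticulin, Calr, and calnexin, Canx, which hold glycoproteins during folding, were at 0.17 ± 0.15 and 0.17 ± 0.14. Their 95% intervals were -0.19 to 0.53 and -0.16 to 0.49. By its probe-set name the Calr probe may also pick up related transcripts.

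The J-domain proteins pass substrates to BiP or start its ATP cycle. Dnajb11 had log2 levels of 10.68, 10.77, 10.49 and 10.78 in secondary and 10.78, 11.04 and 10.89 in tertiary gliomas. The tertiary values lay above the secondary ones, the closest pair being equal to the second decimal, and 10.8% of all genes tested had tertiary values all above. Its difference of 0.23 ± 0.14 did not pass (adjusted p = 0.351). Dnajc3 was at 0.24 ± 0.14 and Dnajb9, which also restrains IRE1, at -0.18 ± 0.16, the only negative value of the 12. Sil1, the nucleotide exchange factor of BiP, was at 0.12 ± 0.20, and Sdf2l1, a partner of Dnajb11, at 0.13 ± 0.23.

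Manf and Creld2 had the largest differences of the 12 chaperones, and neither passed. Manf, a secreted protein that also binds BiP in the lumen, had log2 levels of 10.30, 10.40, 9.74 and 10.57 in secondary and 10.46, 11.14 and 10.70 in tertiary gliomas. Creld2, an induced protein with disulphide isomerase activity, was at 9.98, 9.95, 9.49 and 10.23 and at 9.96, 10.73 and 10.59. In both genes secondary glioma 3 was the lowest and tertiary glioma 2 the highest sample, and the groups overlapped. The log2 fold changes were 0.51 ± 0.24 for each, with 95% intervals of -0.05 to 1.08 for Manf and for Creld2 (adjusted p = 0.247 and 0.244 in limma). When tertiary glioma 2 was left out they were 0.33 and 0.36. Hyou1, a large Hsp70-like exchange factor, was at 0.33 ± 0.24, and its other probes, tested on their own, were at 0.68 and 0.70. With the brightest probe the difference was 0.13 when tertiary glioma 2 was left out, 0.21 when secondary glioma 3 was and 0.54 when tertiary glioma 1 was.

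**Figure D3:**
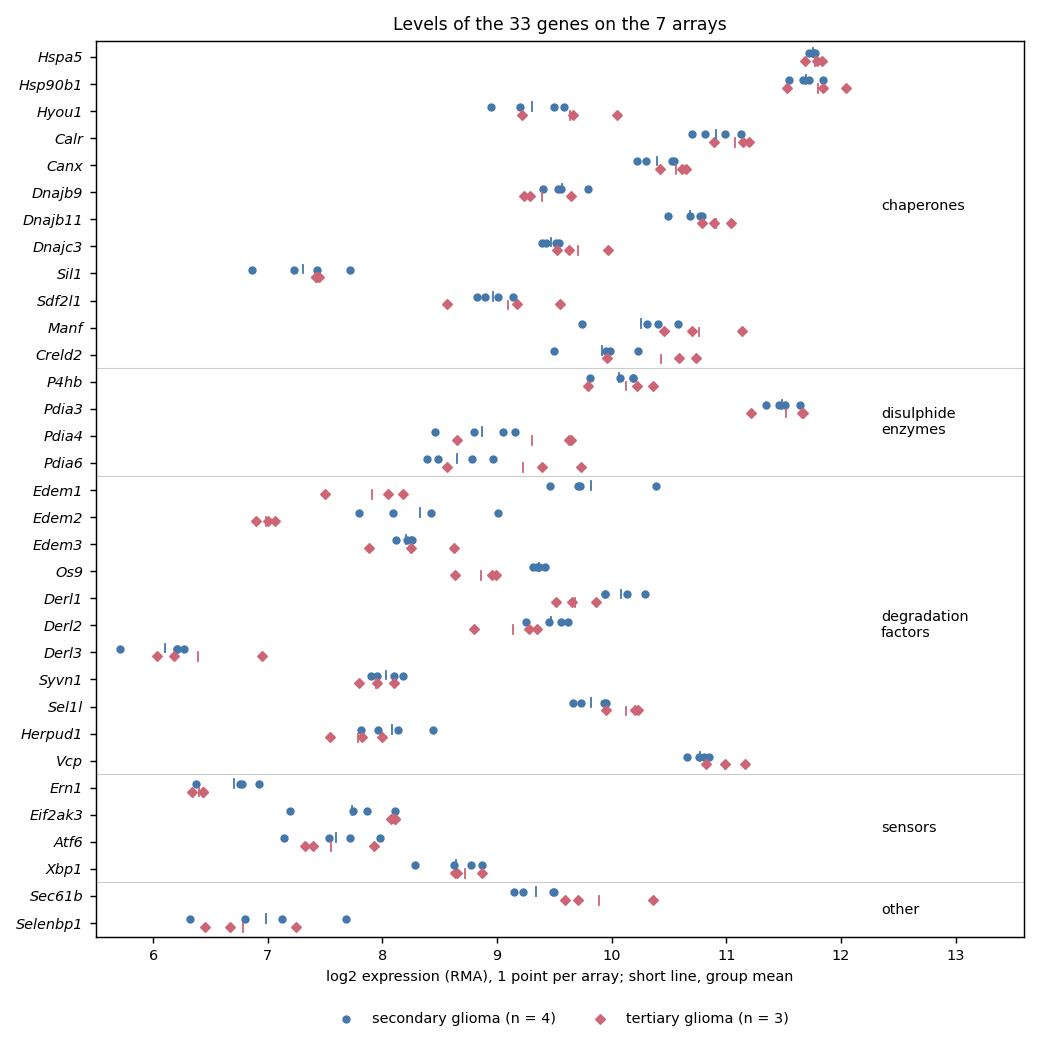
Log2 expression of the 33 genes (rows) on each array (x axis), with circles for the 4 secondary and diamonds for the 3 tertiary gliomas and short lines for the group means. Rows are different probes and are not comparable with each other. Tertiary diamonds lie below all secondary circles for Edem1, Edem2, Os9 and Derl1, and the 7 values of Hspa5 lie within 0.15.

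None of the 4 disulphide enzymes passed the test, also at an unadjusted p under 0.05 with the brightest probe. All 4 differences were positive, where 60.6% of all genes tested were. Only 2 were positive when tertiary glioma 2 was left out, and 3 when secondary glioma 1, secondary glioma 3 or tertiary glioma 3 was. Pdia3, an isomerase that works with the lectin chaperones, was at 0.03 ± 0.16 (95% interval -0.34 to 0.40). Its other probe was at 0.63 ± 0.23, with an unadjusted p of 0.0241 and an adjusted p of 0.157 in limma over all probes. P4hb, the classical protein disulphide isomerase, was at 0.06 ± 0.18 (-0.36 to 0.48). Pdia3 and P4hb were at -0.05 and -0.06 when tertiary glioma 2 was left out. Pdia4 and Pdia6 were at 0.44 ± 0.29 and 0.57 ± 0.29, and Pdia4 was at 0.77 and 0.27 when tertiary gliomas 1 and 2 were left out in turn. The log2 levels of Pdia6, which also acts on IRE1 and PERK, were 8.49, 8.78, 8.39 and 8.96 in secondary and 8.56, 9.73 and 9.39 in tertiary gliomas. Tertiary gliomas 2 and 3 lay above all secondary samples and tertiary glioma 1 lay among them. Without tertiary glioma 1 the log2 fold change of Pdia6 was 0.90 ± 0.21 and passed (adjusted p = 0.0381). That fit called 1 of the 33 genes higher, and 781 of all 14453 genes tested, against 151 in the reported fit. Without both tertiary glioma 1 and secondary glioma 3 the log2 fold change of Pdia6 was 0.81 (adjusted p = 0.0609). Without tertiary glioma 2 it was 0.32 (adjusted p = 0.607), so the call rests on which tertiary sample is left out. The median of the 4 enzymes was 0.25. It was 0.50 when tertiary glioma 1 was left out, 0.11 when tertiary glioma 2 was and 0.15 when tertiary glioma 3 was.

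Ero1b, an oxidase that recharges the isomerases and the current name of the unmatched list entry, had log2 levels of 7.89, 7.88, 8.46 and 8.14 in secondary and 7.49, 7.86 and 7.49 in tertiary gliomas. The tertiary values were all below the secondary ones, as in 11.2% of all genes tested. Its log2 fold change was -0.48 ± 0.19 and did not pass (adjusted p = 0.180).

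The degradation factors held both genes that fell. Of 11, 2 were lower and 0 higher, with an unadjusted p under 0.05 in 4, all lower, where 6.33% and 11.7% of all genes tested were lower by these rules. The median log2 fold change was -0.30. The median was -0.04 with all probes of a gene averaged, -0.17 with array weights, and -0.18, -0.15 and -0.18 when secondary glioma 3, tertiary glioma 1 or tertiary glioma 3 was left out. The tertiary values lay all below the secondary values in 4 of the 11 (Edem1, Edem2, Os9 and Derl1), and in 11.2% of all genes tested.

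EDEM proteins are mannosidase-like proteins that trim or bind the glycans of misfolded glycoproteins and direct them to degradation. Edem1 had log2 levels of 9.46, 9.71, 10.38 and 9.73 in secondary and 7.50, 8.18 and 8.05 in tertiary gliomas. Secondary glioma 3 was the highest and tertiary glioma 1 the lowest, and the groups were more than 1 log2 unit apart. The level fell by 1.91 ± 0.26 on the log2 scale, which is 3.76-fold lower (95% interval of the log2 fold change -2.51 to -1.31, adjusted p = 0.00323). Its other probe gave -1.03 ± 0.22 when all probes were tested on their own (adjusted p = 0.0329). Edem1 passed in each alternative fitted, with log2 fold changes between -2.04 and -1.47 and adjusted p between 0.000657 and 0.0172.

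Edem2 starts the trimming of the same glycans. It had log2 levels of 7.79, 8.09, 9.01 and 8.42 in secondary and 6.895, 7.001 and 7.062 in tertiary gliomas. The secondary values spread over more than 1 log2 unit, with secondary glioma 3 again the highest, while the tertiary values lay close together. The level fell by 1.34 ± 0.27, or 2.54-fold (95% interval -1.98 to -0.71, adjusted p = 0.0241). The call was lost without secondary glioma 4 (adjusted p = 0.0688), tertiary glioma 2 (0.0865) or tertiary glioma 3 (0.0777), at log2 fold changes of -1.31, -1.35 and -1.38. The other Edem2 probe, with a mean log2 level of 5.42, was at -0.55 ± 0.36 (adjusted p = 0.399). Edem3, the third of the family, was at 0.04 ± 0.18 (95% interval -0.38 to 0.47), with secondary values of 8.12 to 8.26 and tertiary values of 7.88 to 8.63 on both sides of them.

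The upstream 250 bases of Edem1 and Edem2 are shown beside that of Hspa5, because they belong to the genes that fell and hold none of the 3 elements searched. Edem1 is at chr6:108828391-108828640, plus strand, and Edem2 at chr2:155729476-155729725, minus strand. Capitals mark the words CCAAT and CCACG on either strand, which Edem1 holds 1 and 2 times and Edem2 0 times in this window.
Edem1: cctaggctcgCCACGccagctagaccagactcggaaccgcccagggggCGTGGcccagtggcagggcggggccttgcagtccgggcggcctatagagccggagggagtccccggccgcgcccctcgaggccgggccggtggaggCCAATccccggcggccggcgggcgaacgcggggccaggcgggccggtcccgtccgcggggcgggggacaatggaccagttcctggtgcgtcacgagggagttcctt
Edem2: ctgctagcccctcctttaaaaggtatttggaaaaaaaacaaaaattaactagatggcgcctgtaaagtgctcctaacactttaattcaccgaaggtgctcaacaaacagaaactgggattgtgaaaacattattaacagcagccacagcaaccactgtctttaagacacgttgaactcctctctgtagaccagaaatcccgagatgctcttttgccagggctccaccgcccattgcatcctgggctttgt

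Markers of microglia and macrophages were lower in tertiary gliomas too. They had list means of 9.82, 10.07, 10.56 and 9.94 in secondary and 6.37, 6.68 and 5.89 in tertiary gliomas, and their median log2 fold change was -4.12. Secondary glioma 3 was the highest sample for the marker list and for the brightest probes of both genes. Among tertiary gliomas the orders differed: the marker list was lowest in tertiary glioma 3, while Edem1 and Edem2 were lowest in tertiary glioma 1 and Edem2 was highest in tertiary glioma 3. The part of these cells in the difference of Edem1 and Edem2 was not tested. Of 7 myelinating oligodendrocyte markers all had negative differences and 3 were called lower (median -1.74), with list means of 8.27 to 9.13 in secondary and 6.97 to 7.31 in tertiary gliomas, and their part was not tested either. Of granulocyte and monocyte markers tested, 3 of 3 were called lower. Of endothelial and pericyte markers it was 2 of 8, with all 8 negative. Of lymphocyte and plasma cell markers it was 1 of 5, Prdm1 alone, and 2 of the 5 had positive differences. These lists had 6, 10 and 13 genes with a probe, and the rest were under the dim filter and not tested. Among those called, S100a8, Abcc9 and Anpep passed the filter only through their secondary values, with tertiary means of 3.77, 3.42 and 3.55. Over all genes tested, 6.33% were called lower. Limma called 0 of 7 astrocyte and 0 of 7 neuron markers. At an unadjusted p under 0.05, 2 astrocyte markers were lower and 2 neuron markers higher, against 11.7% and 12.1% of all genes.

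**Figure D4:**
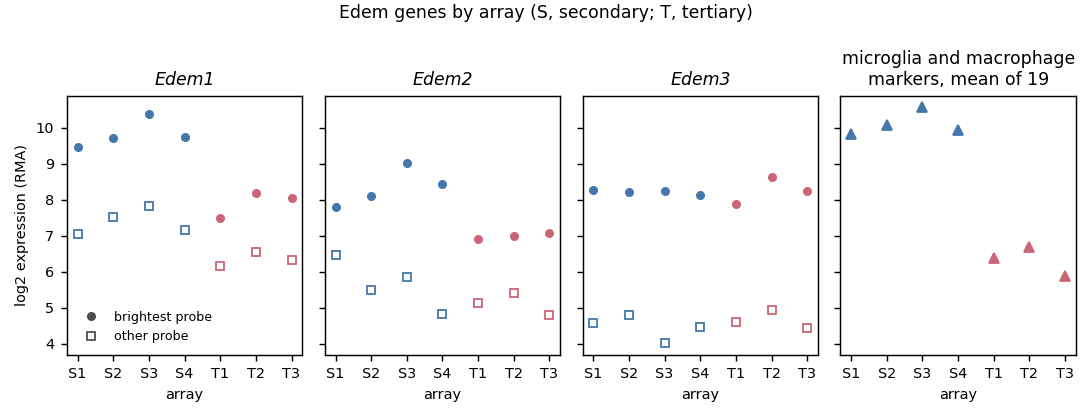
Log2 expression (y axis) of Edem1, Edem2 and Edem3 on arrays of secondary gliomas S1 to S4 and tertiary gliomas T1 to T3 (x axis), with filled symbols for the brightest probe and open squares for the other, and the mean of 19 microglia and macrophage markers at the right. Both Edem1 probes and the brightest Edem2 probe are lower on every tertiary array than on any secondary one, and Edem3 is not.

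Os9, a lectin that hands trimmed glycoproteins to the ubiquitin ligase complex, had log2 levels of 9.37, 9.31, 9.42 and 9.35 in secondary and 8.95, 8.63 and 8.99 in tertiary gliomas. The secondary samples lie close together and all tertiary samples lie below them. The log2 fold change of -0.50 ± 0.13 did not pass (95% interval -0.82 to -0.19, adjusted p = 0.0686), and passed with array weights (adjusted p = 0.0411). The other Os9 probe was at -0.58.

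The derlins are membrane proteins of the channel through which chains leave the reticulum. Derl1 was at -0.40 ± 0.15 (adjusted p = 0.167), with secondary values of 9.94 to 10.29 and tertiary values of 9.52 to 9.87, and its other 3 probes were at -0.28 to -0.50. Derl2 was at -0.33 ± 0.18, but its other probe was at 0.59 ± 0.25. Derl3, the form known from secretory cells, was at 0.29 ± 0.25. The ubiquitin ligase Syvn1 was at -0.09 ± 0.14 and its partner Sel1l at 0.30 ± 0.14 (adjusted p = 0.240), with all 5 Sel1l probes positive, from 0.15 to 0.83. Herpud1, an induced scaffold of that ligase, was at -0.30 ± 0.19, and Vcp, the ATPase that pulls chains out of the membrane, at 0.22 ± 0.13. By their probe-set names the Derl1, Syvn1 and Hyou1 probes may also pick up related transcripts.

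The sensors and the transcription factor Xbp1 did not pass, also at an unadjusted p under 0.05, with 2 of 4 positive and a median of 0.02, or -0.06 when tertiary glioma 2 was left out. Ern1, which encodes the IRE1 kinase and ribonuclease, had secondary values of 6.38 to 6.93 and tertiary values of 6.34 to 6.44. Its log2 fold change was -0.31 ± 0.16 (adjusted p = 0.279), and its 3 other probes past the filter were negative too. Eif2ak3, which encodes PERK, was at 0.37 ± 0.21. Its tertiary values of 8.07, 8.11 and 8.11 agree closely, while the secondary values ran from 7.20 to 8.11. Atf6 was at -0.04 ± 0.24, with its other probes at 0.22 and 0.39, and Xbp1 at 0.08 ± 0.17 (95% interval -0.32 to 0.47). The arrays do not separate the spliced from the unspliced Xbp1 message here, and phosphorylation of the sensors is not measured by RNA.

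Sec61b, the small subunit of the channel through which chains enter the reticulum, had log2 levels of 9.23, 9.50, 9.15 and 9.49 in secondary and 9.59, 10.36 and 9.70 in tertiary gliomas. All tertiary samples lay above all secondary ones. The difference of 0.54 ± 0.21 had an unadjusted p of 0.0348 and did not pass after adjustment (0.175 in limma). It was 0.30 when tertiary glioma 2 was left out. Selenbp1, a selenium-binding protein that is not a known chaperone, was at -0.19 ± 0.33, and its secondary values spread from 6.32 to 7.68.

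The 33 genes did not follow 1 order over the arrays. In 9 of them (Hyou1, Calr, Dnajb11, Manf, Creld2, Pdia4, Pdia6, Derl3 and Sec61b) tertiary glioma 2 was the highest and secondary glioma 3 the lowest of the 7 samples, a pattern of 27.3% of these genes and 8.51% of all genes tested. In 8 others (Dnajb9, Edem1, Edem2, Os9, Derl1, Derl2, Syvn1 and Herpud1) secondary glioma 3 was the highest and a tertiary glioma the lowest, against 14.9% of all genes. The first group holds folding factors for the most part and the second degradation factors. Tertiary glioma 1 was the lowest of the tertiary samples in 23 of the 33 (69.7%), and in 40.8% of all genes. These shares are descriptions and were not tested. The median range over the 7 arrays was 0.79 for the 33 genes and 0.89 for all genes tested.

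Probes of the same gene gave a check on the choice of probe. The 33 genes had 74 probes past the filter, of which 41 were not the brightest of their gene, and 32 of these had the sign of the brightest. In 8 genes (Atf6, Calr, Canx, Derl2, Hspa5, Selenbp1, Syvn1 and Xbp1) the probes differed in sign. When 27501 probes were each tested, 3 of the 74 were called, both probes of Edem1 and the brightest of Edem2.

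**Figure D5:**
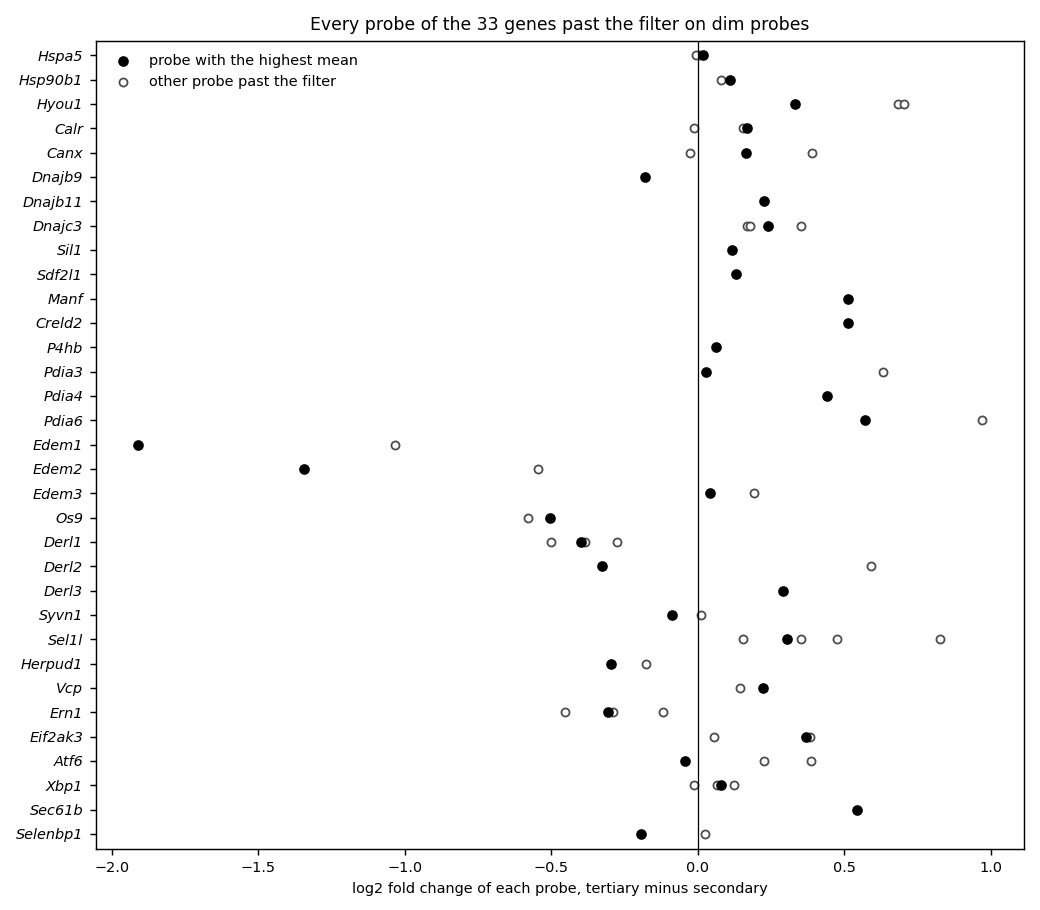
Log2 fold change, tertiary minus secondary (x axis), of every probe past the dim filter for each gene (rows), with filled circles for the probe of highest mean and open circles for the others. Both Edem1 probes lie left of -1, all 5 Sel1l probes lie right of 0, and the Derl2 probes lie on both sides of 0.

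Genes of the same pathway outside these 33 were described from 5 lists of 113 genes, of which 108 were tested. In them 3 rose and 3 fell, where 1.04% of all genes tested rose and 6.33% fell. At an unadjusted p under 0.05 there were 12 higher and 9 lower, where 12.1% and 11.7% of all genes were, and the median log2 fold change was 0.12. Among 29 other folding factors 1 rose, Ero1a, the main oxidase of the isomerases. Its log2 levels were 7.71, 8.07, 7.32 and 7.88 in secondary and 8.82, 8.97 and 8.60 in tertiary gliomas, and it rose by 1.05 ± 0.20 (adjusted p = 0.0186, or 0.0811 without tertiary glioma 2). The tertiary samples lie above all secondary ones, the opposite of its relative Ero1b. Serp1, a stabiliser of the translocon, was at -0.04 ± 0.20. In 26 other degradation genes and 30 genes of the translocon and oligosaccharyl transferase, limma called none in either direction (3 and 3 at an unadjusted p under 0.05), with medians of 0.11 and 0.11.

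Among 9 membrane-bound transcription factors and their proteases, Creb3l2, a relative of ATF6 that is released by the same proteases, fell by 0.97 ± 0.20 (adjusted p = 0.0262). It had secondary values of 8.48 to 8.93 and tertiary values of 7.30 to 7.97. The call was lost with all probes averaged (-0.77, adjusted p = 0.104) and without secondary gliomas 1, 2 or 3 or tertiary gliomas 2 or 3 (adjusted p = 0.0595, 0.0705, 0.0646, 0.0646 and 0.0600). With the replicate number as a block it was lost too (-1.04, adjusted p = 0.0693).

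Of 14 outputs downstream of PERK and IRE1, 2 rose and 2 fell, with a median of -0.09. Over all genes tested, 1.04% rose and 6.33% fell. At an unadjusted p under 0.05, 4 of the 14 were higher and 4 lower, against 12.1% and 11.7% of all genes. Atf4, the transcription factor whose translation PERK promotes, was at 0.04 ± 0.13. The outputs that rose were Trib3 and Ddit3, by 2.02 and 0.97 (adjusted p = 0.0190 and 0.0436 in limma). Those that fell were Pmaip1 and Atf3. The Ddit3 call was lost with all probes averaged (0.39, adjusted p = 0.270) and without both secondary glioma 3 and tertiary glioma 1 (0.75, adjusted p = 0.117). It was also lost without the dim filter, with array weights and with the replicate number as a block (adjusted p = 0.0550, 0.0619 and 0.102). Without a single sample it held only when secondary glioma 2 was left out, and the adjusted p reached 0.136 without tertiary glioma 2. Trib3 lost its call without secondary gliomas 1 or 4 or tertiary gliomas 2 or 3 (adjusted p = 0.0509, 0.0579, 0.0848 and 0.0544), and without both secondary glioma 3 and tertiary glioma 1 (0.0615). Pmaip1, which encodes the cell death protein Noxa, fell by 2.22 ± 0.30 (adjusted p = 0.00312). It had log2 levels of 7.71 to 8.26 in secondary and 5.04 to 6.33 in tertiary gliomas, and kept its call in each fit that left out samples. Atf3, a stress-induced transcription factor, fell by 3.81 ± 0.26 (adjusted p = 0.000116), with log2 levels of 10.00 to 11.04 in secondary and 6.42 to 6.52 in tertiary gliomas. For both genes secondary glioma 3 was the highest sample, as it was for the microglia and macrophage list, and the part of those cells in the fall of Atf3 and Pmaip1 was not tested.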

How the data were processed

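The authors deposited log2 values made with RMA, per the submitters' processing notes, 1 per probe and array; no RMA version is named, and the log base was read from the values. Of 45101 probes, 34945 had 1 gene symbol in the platform annotation. A dim filter at the 25th percentile of probe means left 14453 genes, which were fitted with limma 3.58.1 (lmFit and eBayes) in R 4.3.3 without covariates. Benjamini-Hochberg adjustment ran over all genes tested. Differences are tertiary minus secondary with limma's standard error. The members and lists were chosen with earlier results of these data known. All members are named, and of the other pathway lists the called genes plus Atf4, Ddit3, Trib3, Serp1 and Creb3l2. Most called genes of the marker lists are not named. Promoters came from RefSeq (GRCm38.p6) and motifs were matched exactly in Python 3.11.15; protein motifs were not analysed here. The fit was tested on simulated data for the tertiary and secondary groups with 14453 genes: it recovered 47% of 100 genes given a log2 change of 1, and 88% of 100 given a change of 2, with 4 false calls. Alternatives were other probe summaries, filters, scalings, variance models and array weights, a replicate block, an adjusted p under 0.10 and each sample left out. Scan batches were not analysed here.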

Additional observations from a re-analysis of the deposited data

Results flagged for a closer look

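Derl3 in secondary glioma 3, at a log2 level of 5.71, stood far below the other secondary gliomas, which lay between 6.21 and 6.27. Its gap to the nearest value was 0.901 of the group's range, above Dixon's 95% critical value for 4 samples. Of the 33 genes examined in the secondary group 1 was marked in this way, and chance marks about 1 in 20.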

How the results depend on the processing

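The count of genes called lower, 2 in the reported fit, was 1 with the replicate number as a block, where Edem2 was at -1.31 (adjusted p = 0.0750), and 1 to 2 when each sample was left out. It was 3 with array weights and 3 at an adjusted p under 0.10. The labels do not say whether the replicate numbers pair the samples. Same-numbered samples had correlations of 0.04, -0.14 and 0.01 between their deviations from the group means, and no tertiary sample was closest to its own number. So few pairs cannot show whether samples share an origin. The count called higher, 0, ran from 0 to 1 with samples left out. The median over the 33 genes, 0.11, ran from 0.01 to 0.23 with samples left out and moved by less than the spread between samples in every alternative. Outside the 33 genes, the 3 pathway genes called higher became 0 to 4 with samples left out and 1 without both secondary glioma 3 and tertiary glioma 1. The 3 called lower became 5 with array weights and 5 at an adjusted p under 0.10. Of 602 values of single genes under an alternative, 5 lost a call, all of Edem2, 2 gained one (Pdia6 and Os9) and 0 reversed a called direction. The sign was the same in every alternative, other probes apart, for 22 of the 33 genes. Over all genes, 1066 calls became 1933 with array weights, 636 with the block, and 1857, 647 and 653 when tertiary gliomas 1, 2 and 3 were left out in turn. The cause of these shifts was not tested. No detection calls were used, so signal over background is not known probe by probe.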
